A study of Homo sapiens with 3 samples.

Results

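The genes described here are those of protein folding in the endoplasmic reticulum (ER) and of the unfolded protein response, taken from ribosome profiling of HEK293T cells with and without the aminoglycoside G418. They were chosen by name: 33 genes, of which 28 had a transcript listed in the tables of all 3 libraries, among 8812 transcripts listed there in all. By role, 9 listed genes were chaperones and cochaperones, 9 were foldases, 7 were parts of ER-associated degradation (ERAD) and 3 were counted as stress sensors. The last class holds the sensors ERN1 and ATF6 and the transcription factor XBP1. HSPA5, DNAJB11, ERP29, DNAJC10 and SEL1L were in none of the tables and are not analysed here.

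Secretory and membrane proteins fold in the ER, where chaperones hold unfolded chains, lectin chaperones and their partners retain glycoproteins until these are folded, and foldases form and rearrange disulfide bonds or isomerise prolines. Chains that fail to fold are recognised, moved back to the cytosol and degraded by ERAD. When unfolded proteins accumulate, the sensors ERN1 (IRE1), ATF6 and PERK start the unfolded protein response, in which spliced XBP1 and cleaved ATF6 raise transcription of genes for chaperones, foldases and ERAD. Many soluble ER proteins end in KDEL or a related tail of 4 residues, which KDEL receptors in the Golgi bind to send escaped proteins back.

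HEK293T is an established line derived from human embryonic kidney, with the SV40 large T antigen. The groups were untreated cells (2 libraries, Untreated A and Untreated B) and cells given 500 µg/mL G418 for 24 hours (1 library, G418 A). G418 binds the ribosome and lets it misread codons, stop codons among them. Cells were lysed in cycloheximide, the fragments that ribosomes protect from RNase I (RPFs) were sequenced, and nothing else distinguished the groups in the labels. The read totals behind the authors' RPM scale (reads per 1e6 reads) were 5857230 for Untreated A, 9477972 for Untreated B and 7216039 for G418 A. Of the HEK293T markers considered, LIN28B, IGF2BP1 and VIM were listed in all 3 libraries and PAX2 in 1. PTPRC of leukocytes, ALB of hepatocytes and KRT5 of keratinocytes were listed in none, and COL1A1, a collagen of fibroblasts, stood between 34.8 and 46.7 RPM. The study calls its replicates biological, and the labels add nothing on separate cultures. The p-values measure the spread between these samples alone, and the single G418 library carries no error between cultures.

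The first question was whether the ribosome occupancy of ER folding genes differed with G418. CDS reads were compared on transcripts whose mean number of CDS reads over the libraries was at least 2 to the power of 7, which held 5684 transcripts and 26 of the 28 listed genes. EDEM1 and ERN1 fell under this minimum. CDS reads follow both the amount of an mRNA and how densely it is translated, and in a bulk culture a change in every cell cannot be told apart from a larger change in some cells.

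The ER folding genes stood higher in G418 A. Of 26 tested, 11 rose and 0 fell by the edgeR quasi-likelihood test at an adjusted p below 0.05, while 3.04% of all tested transcripts rose and 0.581% fell. These 11 were also the genes whose log2 change reached 0.5 above the mean of the untreated libraries, a threshold passed by 10.7% of all transcripts, and 10 of them did so over each untreated library alone (6.32% of all transcripts). No gene of the 26 was lower by 0.5, against 2.62% of all. The median log2 change over the untreated mean was 0.45, with a lowest value of 0.00 for OS9 and a highest of 1.55 for HERPUD1. Over all 5684 transcripts the median was 0.07. G418 A lay above both untreated libraries for 24 of the 26 genes (46.3% of all transcripts).

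The untreated libraries also differed from each other, and the sign of that difference depends only on which is divided by which. The median log2 ratio of Untreated B to Untreated A was -0.15 over the same 26 genes and 0.03 over all transcripts. Only SDF2L1 was higher in Untreated B by at least 0.5 (7.04% of all transcripts), and 0 were lower by 0.5 (1.86%). The median change in G418 A was 0.47 when taken over Untreated A, and 0.59 when taken over Untreated B. Summed over the 26 genes, CDS reads made up 9020.0 and 8212 RPM of Untreated A and B and 12720.1 RPM of G418 A. The edgeR test had 1 residual degree of freedom, so its spread came from the 2 untreated libraries and the lone G418 library was assumed to vary as they did. The test also draws the spread of each transcript towards that of all tested transcripts. An adjusted p here therefore does not rest on the counts of 1 gene alone. With TMM factors in place of the RPM scale, 6 of the 11 calls were kept (HERPUD1, MANF, ERO1A, PDIA4, HSP90B1 and PDIA6), and CALR, CANX, CRELD2, DNAJC3 and HYOU1 had adjusted p-values up to 0.093. Over all transcripts TMM changed 173 calls up and 33 down into 110 up and 41 down. A DESeq2 Wald test called 7 genes, the same 6 and CALR, while it called 0.334% of all transcripts higher in G418 A.

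**Figure D1:**
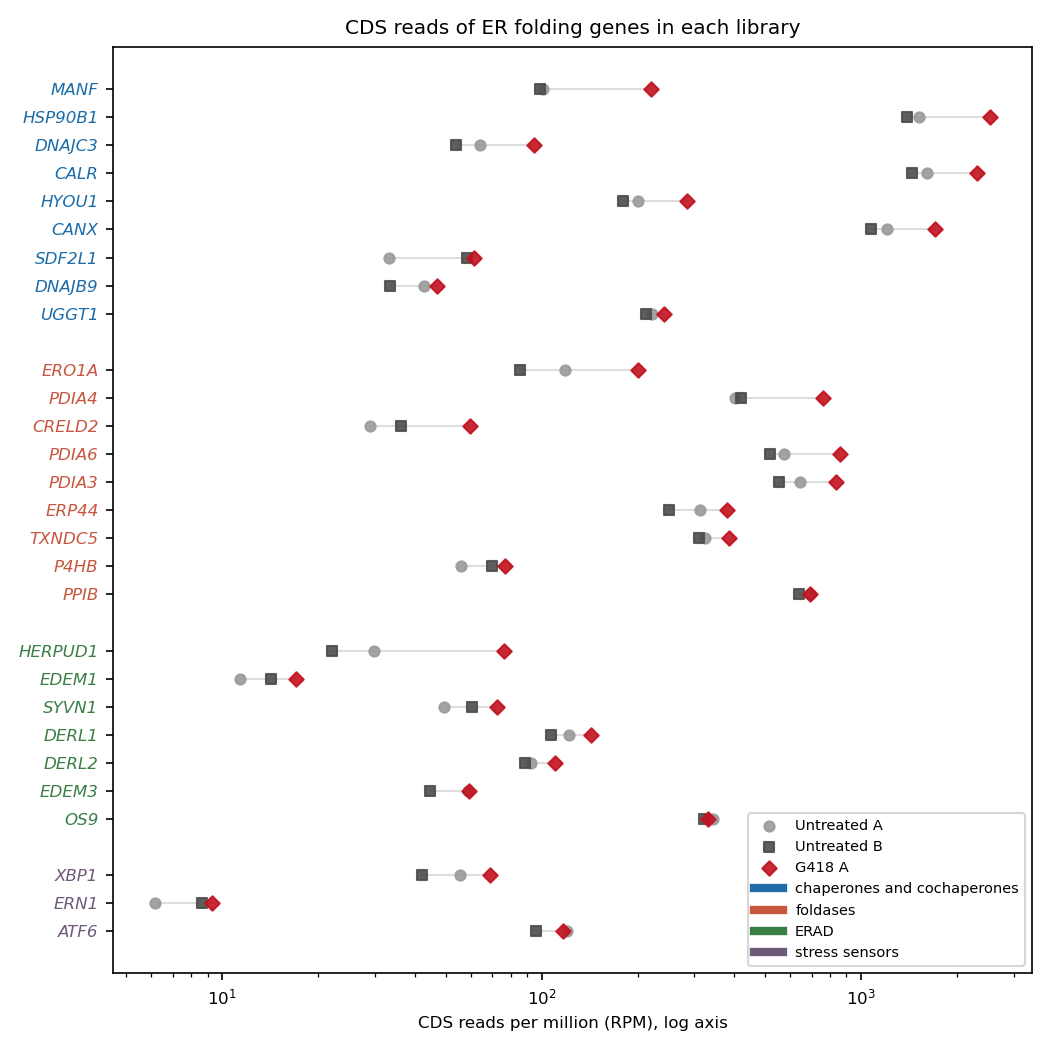
CDS reads in RPM (log axis) of the 28 listed ER folding genes in Untreated A (circles), Untreated B (squares) and G418 A (diamonds), grouped by role and ordered by change. Apart from ATF6 and OS9, the G418 A value lies to the right of both untreated values, and the change over the untreated mean is largest for HERPUD1, MANF and ERO1A.

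Among the chaperones and cochaperones, 6 of 9 rose and the median log2 change was 0.59. MANF, an ER protein that binds the chaperone HSPA5 and can be secreted, had 100.7 and 98.5 RPM of CDS reads in Untreated A and B and 219.5 RPM in G418 A. That is a log2 change of 1.14 from an untreated mean of 99.6 ± 1.55 RPM (SD, n = 2), with an edgeR adjusted p of 5.42e-08. The untreated values lay close together and G418 A well above them.

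HSP90B1 (GRP94), the ER paralog of HSP90, had 1518 and 1391 RPM in the untreated libraries and 2536 RPM in G418 A (log2 change 0.80, edgeR adjusted p 9e-05). Because only primary alignments of multiply mapping reads were kept, some reads of HSP90B1 could be shared with near-identical pseudogene copies. CALR and CANX, the lectin chaperones that bind glycoproteins carrying a single glucose, both rose. CALR went from 1606 and 1439 RPM to 2311 RPM (log2 change 0.60, edgeR adjusted p 0.00805). CANX went from 1209 and 1073 RPM to 1701 RPM (log2 change 0.58, edgeR adjusted p 0.0138). For all of these genes G418 A lay outside the range of the untreated libraries.

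DNAJC3, a cochaperone of HSPA5 that also inhibits PERK, had 64.0, 54.0 and 94.7 RPM in Untreated A, Untreated B and G418 A (log2 change 0.68, edgeR adjusted p 0.0319). HYOU1, a large chaperone that exchanges the nucleotide of HSPA5, had 200.6, 179.7 and 285.8 RPM (log2 change 0.59, edgeR adjusted p 0.0168). The listed HYOU1 transcript has a coding region of 2001 nt without its trimmed ends, shorter than the 3000 nt, stop codon included, that the annotation used here gives it, so these values cover a part of the protein.

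The remaining chaperone genes did not pass the test. SDF2L1, part of an ER chaperone complex, had 33.3 and 58.5 RPM in Untreated A and B and 61.4 RPM in G418 A, so that its G418 value was almost that of Untreated B (edgeR adjusted p 0.418). UGGT1, the glucosyltransferase that marks unfolded glycoproteins for another round of CALR and CANX binding, had 221.6, 212.2 and 241.3 RPM (log2 change 0.15). DNAJB9, a cochaperone of HSPA5 that also restrains ERN1, had a log2 change of 0.31 over the untreated mean.

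Among the foldases, 4 of 9 rose and the median log2 change was 0.47. ERO1A, the oxidase that recharges protein disulfide isomerases, had 118.3, 85.6 and 200.0 RPM in Untreated A, Untreated B and G418 A (log2 change 0.97, edgeR adjusted p 1.38e-05). Its untreated libraries stood apart, with a log2 ratio of -0.47 for B over A, and its change was 0.76 relative to Untreated A and 1.22 relative to B. The disulfide isomerase PDIA4 (ERp72) had 401.7, 421.6 and 758.9 RPM (log2 change 0.88, edgeR adjusted p 1.79e-05). PDIA6, another disulfide isomerase, had 575.2, 520.2 and 858.4 RPM (log2 change 0.65, edgeR adjusted p 0.00371).

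CRELD2, an ER protein with disulfide isomerase activity, was a low gene of this class, with 29.0, 36.3 and 59.5 RPM (log2 change 0.86, edgeR adjusted p 0.0289). PDIA3 (ERp57), which works on the glycoproteins held by CALR and CANX, had 645.0, 554.5 and 831.5 RPM. Its log2 change of 0.47 had an edgeR adjusted p of 0.0689, and G418 A lay above both untreated values. ERP44, which returns incompletely assembled proteins from the Golgi, had 312.6, 250.3 and 380.7 RPM (log2 change 0.44, edgeR adjusted p 0.115).

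The other foldases lay nearer to the untreated level. TXNDC5, a disulfide isomerase with several thioredoxin domains, had 324.2, 310.9 and 386.2 RPM (log2 change 0.28). PPIB (cyclophilin B), a proline isomerase, showed a log2 change of 0.06, from an untreated mean of 665.2 ± 35.0 RPM (SD, n = 2) to 692.5 RPM, a difference smaller than that SD, and with TMM factors its log2 change was -0.01. P4HB, the founding disulfide isomerase, had a log2 change of 0.28, but its listed transcript has a coding region of 288 nt without its trimmed ends, so these reads are a small part of the protein's. Per length of CDS, PPIB was among the densest genes in the untreated libraries, with 1116 and 1036 RPKM, beside CALR with 1316 and 1179 RPKM, whereas ERN1 with 2.12 and 2.98 RPKM was the lowest of the set.

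ERAD held the gene of the set with the largest change and several with small ones: 1 of 6 tested genes rose and the class median was 0.30. HERPUD1, a membrane protein that organises the ubiquitin ligase complex of ERAD, had 29.9 and 22.1 RPM in Untreated A and B and 76.1 RPM in G418 A. This is a log2 change of 1.55 from an untreated mean of 26.0 ± 5.53 RPM (SD, n = 2), with an edgeR adjusted p of 7.23e-07, and it ranked at place 3 by size among all tested transcripts. Relative to Untreated A alone it was 1.35, and relative to B alone 1.79.

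SYVN1 (HRD1), the ubiquitin ligase of that complex, had a log2 change of 0.40 with an edgeR adjusted p of 0.396. DERL1 and DERL2, which form part of the channel for exit from the ER, had log2 changes of 0.32 and 0.28. EDEM3, which trims mannose from misfolded glycoproteins, had 58.9 and 44.8 RPM in Untreated A and B and 59.3 RPM in G418 A, so the G418 value equalled that of Untreated A within 0.01 on the log2 scale. OS9, a lectin that hands such glycoproteins to the ligase, had 343.0, 321.7 and 332.2 RPM and lay between the untreated values. EDEM1, below the read minimum, had 67, 135 and 123 CDS reads, a log2 change of 0.41 that was not tested.

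The class of stress sensors, in which XBP1 was counted, showed no call. Its median of 0.30 came from XBP1 and ATF6 alone. XBP1, the transcription factor made active by ERN1, had 55.7, 42.2 and 68.7 RPM in Untreated A, Untreated B and G418 A, a log2 change of 0.49 with an edgeR adjusted p of 0.249. The listed XBP1 transcript was not found in the annotation used here, and reads of spliced and unspliced XBP1 mRNA cannot be told apart in these tables. ATF6, the membrane-bound factor released by cleavage in the Golgi, had 120.4, 96.3 and 116.5 RPM (log2 change 0.11, edgeR adjusted p 0.876), with G418 A between the untreated values. ERN1, the sensor kinase and nuclease that splices XBP1 mRNA, had only 36, 82 and 67 CDS reads in the 3 libraries, too few for the test.

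**Figure D2:**
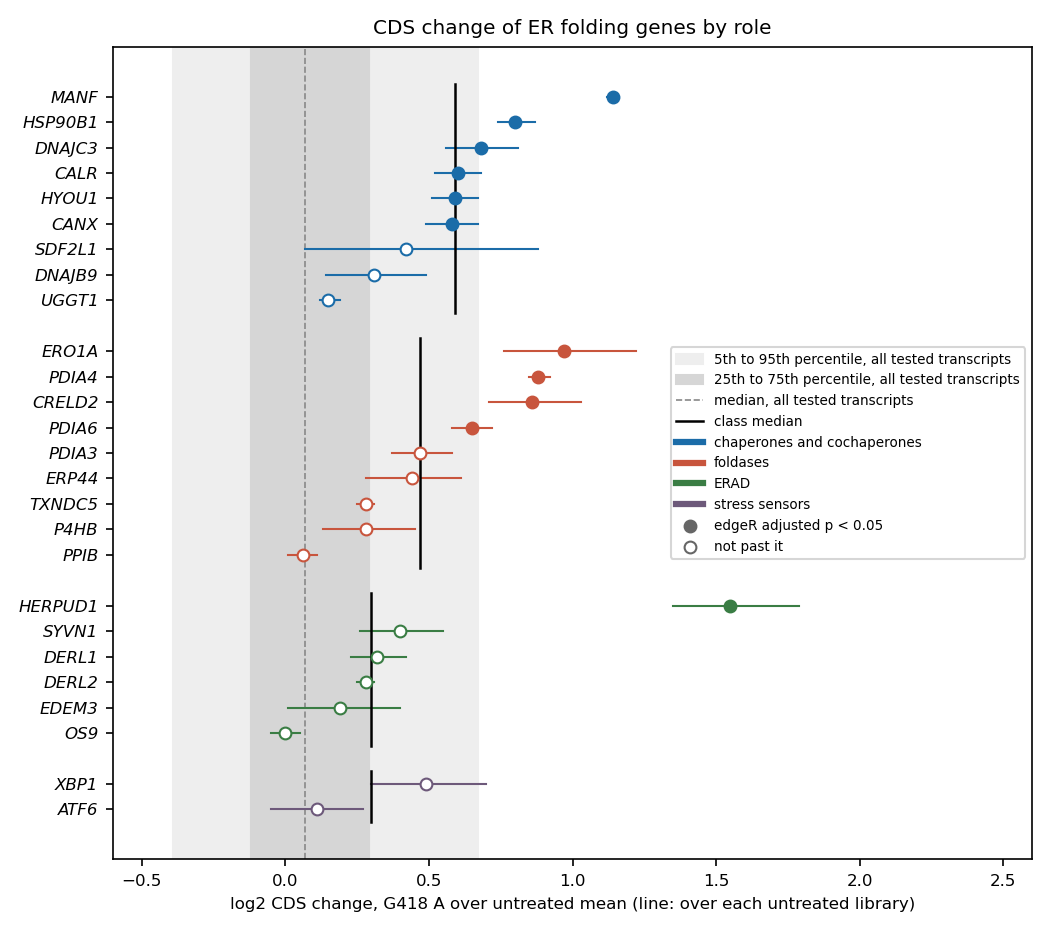
Log2 CDS change of the 26 tested ER folding genes in G418 A over the untreated mean (points), with a line to the changes over each untreated library. Filled points passed the edgeR test, and black bars are class medians (0.59, 0.47, 0.30 and 0.30 from top to bottom, the last from XBP1 and ATF6 alone). The shaded bands give the percentiles of all tested transcripts, of which the 95th is at 0.67.

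Further genes of the secretory pathway were counted from lists by function. Of 20 other ER folding genes tested, 1 passed the edgeR test, 4 had a log2 change of at least 0.5 and 10 had an unadjusted p below 0.05. The one that passed was SDF4, a calcium-binding protein of the Golgi lumen, with 83.1 and 94.0 RPM in Untreated A and B and 167.1 RPM in G418 A (log2 change 0.92, edgeR adjusted p 0.000107). Next in that list came SIL1, a nucleotide exchange factor for HSPA5, with a log2 change of 0.57, and DNAJC1, an ER cochaperone, with 0.51. The median over the 20 genes was 0.33. In the list of other ERAD genes, UBE2J1, a ubiquitin-conjugating enzyme of the ER membrane, passed with a log2 change of 0.67 (edgeR adjusted p 0.0341). DESeq2 called SDF4 but not UBE2J1 (adjusted p 0.031 and 0.409). RNF5, a ubiquitin ligase, had a log2 change of -0.80 that did not pass (edgeR adjusted p 0.0805). The median of that list was 0.31 over 16 tested genes, of which 7 had an unadjusted p below 0.05.

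The PERK arm gave no call in its 3 tested genes, ATF4, ATF3 and ASNS, whose log2 changes were 0.40, -0.23 and 0.09. Nor did the list of ATF6 processing and related genes (4 tested, median 0.11) or the KDEL receptors, where KDELR1 had 0.11 and KDELR3 0.26. The count at an unadjusted p below 0.05 was also 0 in each of these lists, as was that of DESeq2 calls.

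The promoters of these genes were searched for the known response elements of the unfolded protein response. These are ERSE, which is CCAAT and CCACG held 9 bases apart, and ERSE-II, which is ATTGG and CCACG held 1 base apart. Both strands were searched from 250 bases before to 50 bases after each RefSeq start (GRCh38.p14). Promoters were found for 31 of the 33 genes. Of these, 7 held an ERSE (HSPA5, HSP90B1, CALR, CANX, PDIA6, CRELD2 and XBP1) and 3 an ERSE-II (HYOU1, SDF2L1 and HERPUD1), a share of 32.3% for either element. Among all 35116 promoters of the table, 0.0769% held an ERSE and 0.0541% an ERSE-II, or 0.131% for either. Counted by gene, as for the set, either element was found in 0.161% of 27305 genes. The set was chosen as genes of this response, so its share was not tested against that of all genes. The XBP1-binding motif TGACGTGG stood in the promoters of HYOU1, TXNDC5 and DNAJC10, and in 0.729% of all promoters. A match is a description of the letters and does not show that a factor bound there.

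Among the 9 tested genes that hold an element, 7 had a log2 change of at least 0.5, and XBP1 and SDF2L1 did not. A link between element and change was not tested. The elements of these 9 genes are shown as a description, with that of HERPUD1 further below. Each is given on the strand of its gene with 5 bases on either side, the element in capitals, and the place of the element in GRCh38.p14. An element on the opposite strand reads as CGTGG first.
HSP90B1, chr12:103930216-103930234: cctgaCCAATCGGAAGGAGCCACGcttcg
HSP90B1, chr12:103930321-103930339 (opposite strand): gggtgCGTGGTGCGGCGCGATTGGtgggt
CALR, chr19:12938384-12938402 (opposite strand): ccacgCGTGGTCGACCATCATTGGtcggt
CANX, chr5:179698778-179698796: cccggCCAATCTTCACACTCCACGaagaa
PDIA6, chr2:10812853-10812871 (minus strand gene): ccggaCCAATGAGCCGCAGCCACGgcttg
CRELD2, chr22:49918554-49918572 (opposite strand): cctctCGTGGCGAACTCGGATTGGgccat
XBP1, chr22:28800603-28800621 (minus strand gene): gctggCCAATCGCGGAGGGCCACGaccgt
SDF2L1, chr22:21642114-21642124 (opposite strand): ggaagCGTGGACCAATcaaaa
HYOU1, chr11:119057274-119057284 (minus strand gene, opposite strand): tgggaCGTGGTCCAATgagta
HYOU1, chr11:119057380-119057390 (minus strand gene, opposite strand): cgtgaCGTGGTCCAATcccag
HSP90B1 and HYOU1 each held 2 copies.

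The promoter of HERPUD1, whose CDS reads changed most, is given in full for the 250 bases before its start, on the plus strand at chr16:56931892-56932141 of GRCh38.p14, with the ERSE-II in capitals.
HERPUD1: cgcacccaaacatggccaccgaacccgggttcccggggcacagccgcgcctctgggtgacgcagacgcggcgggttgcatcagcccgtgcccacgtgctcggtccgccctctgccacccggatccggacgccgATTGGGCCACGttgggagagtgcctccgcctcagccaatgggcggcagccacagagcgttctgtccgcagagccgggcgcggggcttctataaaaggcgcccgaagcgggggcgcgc
The element lies from 117 to 107 bases before the start.

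Of the 9 tested genes of the set with either element, 7 rose by the edgeR test, and their log2 changes ran from 0.42 for SDF2L1 to 1.55 for HERPUD1 with a median of 0.60. Of the 15 tested genes with a promoter in the table and neither element, 4 rose (MANF, ERO1A, PDIA4 and DNAJC3), with a median of 0.28 and a lowest value of 0.00. These counts depended on the scaling and tool, and were 3 of 9 and 3 of 15 with TMM factors and 4 of 9 and 3 of 15 with DESeq2. Outside the set, 4634 tested transcripts had a promoter in the table and neither element, with a median of 0.07. Of these, 487 had a log2 change of at least 0.5, as had 7 of the 9 and 4 of the 15. Either element stood in a promoter of the gene for 10 tested transcripts outside the set. GYS1 and RUVBL2 share the same element, and so do EIF2A and SERP1. The median of the 10 was 0.05, and 1 of them had a log2 change of at least 0.5. That one was ALG12, a mannosyltransferase that builds the sugar chain attached to ER proteins, named after its values were seen. ALG12 lies head to head with CRELD2, and its ERSE is the same 19 bases of chromosome 22 read from the other gene's side. ALG12 had 18.1 and 22.6 RPM in Untreated A and B and 50.4 RPM in G418 A (log2 change 1.31, edgeR adjusted p 0.000913, DESeq2 adjusted p 0.098). No test was made between the groups by element, since the set was chosen as genes of this response with earlier results known.

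**Figure D3:**
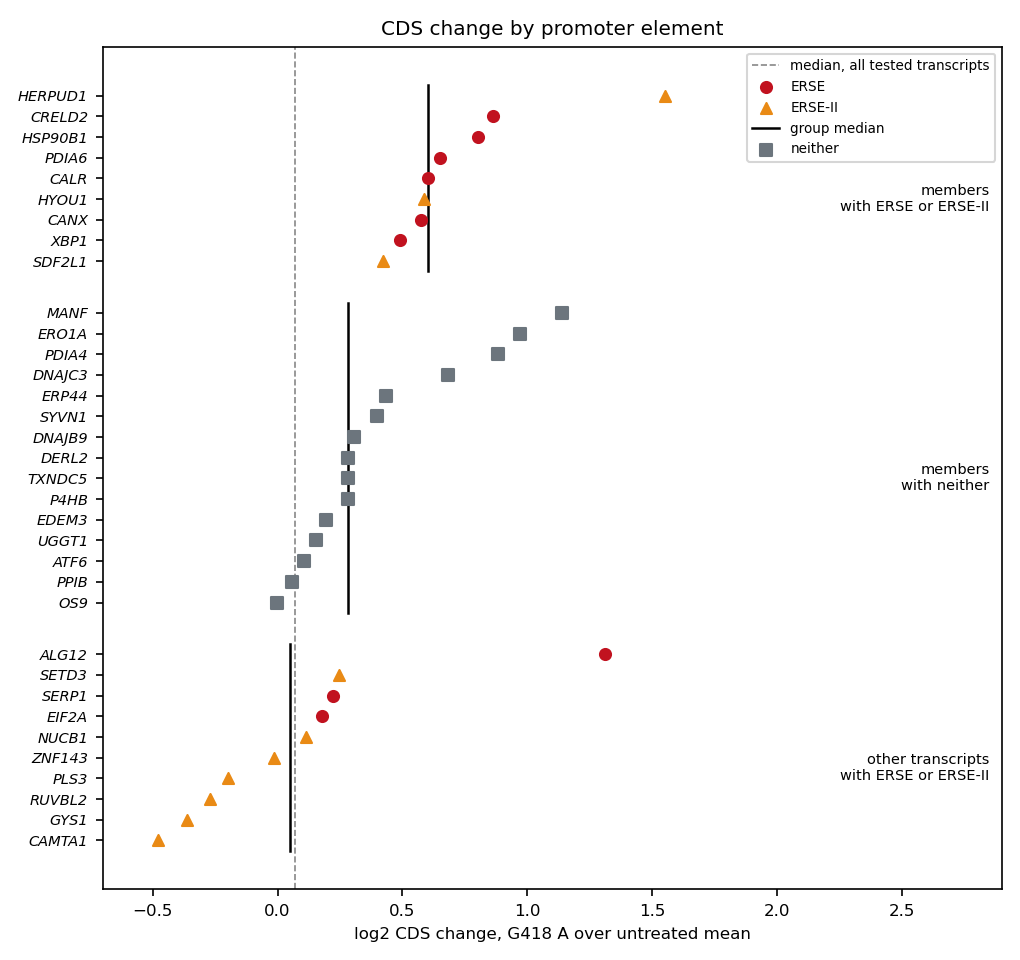
Log2 CDS change in G418 A over the untreated mean for tested ER folding genes with ERSE (circles) or ERSE-II (triangles) in the promoter, for those with neither (squares), and for other transcripts with either element. Black bars are group medians at 0.60, 0.28 and 0.05, and ALG12 stands apart from the other transcripts of the last group at 1.31.

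Readthrough was measured next. The ribosome readthrough score (RRTS) is the density of RPFs from the normal termination codon (NTC) to the first in-frame stop codon of the 3′UTR (3′TC), over the density of RPFs in the CDS. Its region skips the 6 nt that follow the NTC and takes in the 3′TC. A pooled RRTS divides the readthrough reads of a group by the number that the CDS densities of its transcripts would give in the same regions. All intervals below cover counting error only, at 95%.

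Readthrough on ER folding genes was higher in G418 A than in either untreated library. On the 26 genes 31 readthrough reads were found in Untreated A and 54 in B, for a pooled RRTS of 0.0114 (95% Poisson interval 0.00772 to 0.0161) and 0.0132 (0.00991 to 0.0172). In G418 A 622 reads gave a pooled RRTS of 0.124 (0.115 to 0.134). This is 10.1 times the untreated mean of 0.0123 ± 0.00129 (SD, n = 2). With each gene weighted equally, the mean RRTS was 0.231 and 16.8 times its untreated mean. Genes with at least 1 readthrough read numbered 9 and 8 in the untreated libraries A and B and 21 in G418 A, where the shares over all transcripts were 24.0%, 22.3% and 75.8%. With 1 G418 library no test was made between conditions.

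The pooled RRTS in G418 A was below that of all 5684 tested transcripts, which was 0.213 (0.212 to 0.215) and 15.2 times their untreated mean. The equal-weight mean of the set, 0.231, was also below that of all transcripts, 0.338. Pooled RRTS differed with the stop codon and the base after it, from 0.0856 for UAAG to 0.388 for UGAC in G418 A among the transcripts outside the set. The value that these 4-nt signals alone would give was therefore computed from those transcripts. For the ER folding genes it was 0.201 in G418 A, beside the measured 0.124. For the untreated libraries A and B it was 0.0161 and 0.0128. By stop codon, the set had 0.171 for UGA, 0.0933 for UAA and 0.0984 for UAG in G418 A, beside 0.30, 0.122 and 0.194 in the other transcripts. Gene by gene, 12 of 26 lay above the pooled RRTS of their own 4-nt signal in G418 A and 14 below. The largest shortfalls in reads were those of CANX, with 56 reads where its signal would give 182.3, MANF with 26 where it would give 114.2, and DERL1 with 18 where it would give 64.1.

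The classes differed in this respect. For foldases the pooled RRTS in G418 A was 0.177 (0.160 to 0.195) and the value from their stop signals 0.196. For ERAD genes it was 0.159 (0.121 to 0.206) from 57 reads, against 0.316 from stop signals. Without DERL1 the ERAD value was 0.236 (0.168 to 0.323), against 0.296 from the stop signals of the remaining genes. For chaperones and cochaperones it was 0.0709 (0.0607 to 0.0822), against 0.189 from stop signals. Leaving out MANF moved the chaperone value to 0.0894, against 0.211 from the remaining stop signals. Leaving out HSP90B1 moved it to 0.0801, against 0.219. The pooled RRTS of chaperones in the untreated libraries A and B was 0.0153 and 0.0218, and that of foldases 0.00924 and 0.00778. The sensors had 4 readthrough reads in G418 A, all on ATF6. These class differences were not tested, and single genes carry much of each.

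**Figure D4:**
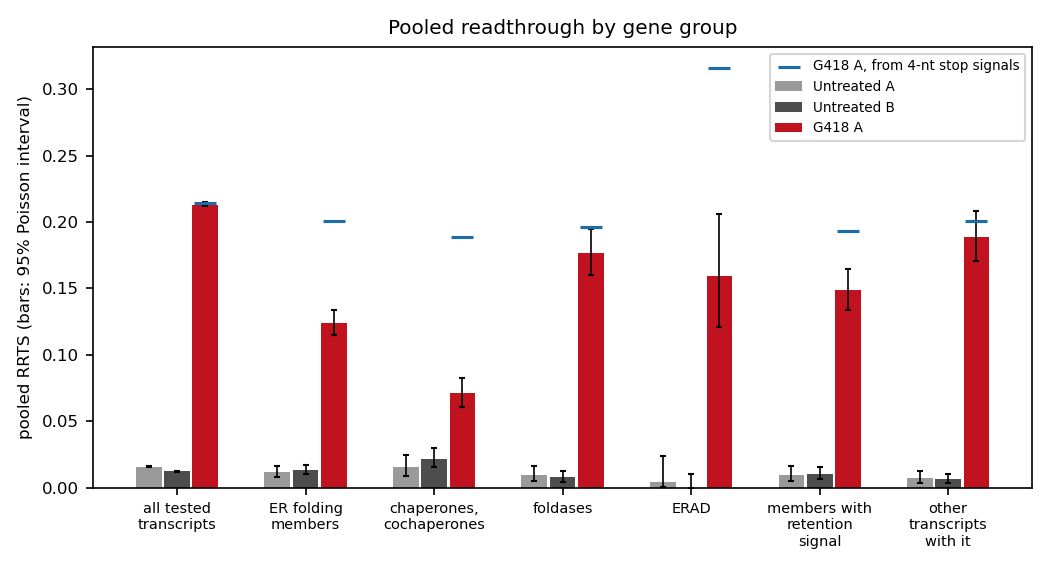
Pooled RRTS in Untreated A, Untreated B and G418 A for all tested transcripts, the ER folding genes, their classes and transcripts whose protein ends in a retention signal. Error bars are 95% Poisson intervals, and the blue dashes give the G418 A value expected from the 4-nt stop signals, which lies above the bar for chaperones and cochaperones (0.0709 against 0.189).

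A stop codon read through at the end of a KDEL protein places further residues after the signal. Of the listed genes, 9 ended in a retention signal by the pattern used here, which is K, R, H, Q, S or A, then D, E, N or Q, then E and L: 5 in KDEL and 1 each in HDEL, KEEL, RDEL and REEL. Their last 4 codons, the NTC and the 12 bases after it are printed to show what a ribosome meets when it leaves each signal. The windows come from GENCODE v44 transcripts on hg38, in the 5′ to 3′ direction of the gene, with the 4-nt stop signal in capitals and the place of the stop codon.
HSP90B1 (KDEL), chr12:103947660-103947662, plus strand: aaagatgaattgTAAAttatactctca
CALR (KDEL), chr19:12943911-12943913, plus strand: aaggacgagctgTAGAgaggcctgcct
PDIA6 (KDEL), chr2:10784258-10784260, minus strand: aaagatgagttgTGAGagccacaacag
TXNDC5 (KDEL), chr6:7883144-7883146, minus strand: aaagacgaacttTAGGaacacagttgg
EDEM3 (KDEL), chr1:184694063-184694065, minus strand: aaggatgagctaTGACttgctaaacaa
PDIA4 (KEEL), chr7:149003794-149003796, minus strand: aaggaagagcttTGAAggcctgaggtc
UGGT1 (REEL), chr2:128189740-128189742, plus strand: cgtgaagaattaTGATctctggagaag
ERP44 (RDEL), chr9:99982612-99982614, minus strand: cgagatgagcttTAAAaacttgaaaaa
SDF2L1 (HDEL), chr22:21644173-21644175, plus strand: cacgatgaactcTGAGtgtgtggatgg
The stop codon of each lies in the last exon of its transcript. From the stop codon to the 3′TC, readthrough would add from 9 residues in CALR to 52 in PDIA4, the residue placed at the stop codon included.

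Every one of the 9 had readthrough reads in G418 A, as had 75.8% of all tested transcripts. In Untreated A 4 of the 9 had any, and in Untreated B also 4 (24.0% and 22.3% of all). Only HSP90B1 and CALR had reads in both. The pooled RRTS of the 9 was 0.00922 (0.00477 to 0.0161) for Untreated A and 0.0102 (0.00622 to 0.0157) for Untreated B, and it was 0.149 (0.134 to 0.165) for G418 A. The last is 15.4 times the untreated mean, and the value from their stop signals was 0.193. The 17 other tested genes of the set had 0.101 (0.0889 to 0.114) in G418 A, beside 0.209 from their stop signals. Among these 17 were PDIA3, CRELD2 and MANF, whose tails are related to the pattern. Counted with the 9, a choice made after seeing the data, they gave 0.125 (0.114 to 0.137). The gap between the groups thus depended on where these tails were placed, and it was not tested. HYOU1, P4HB and XBP1, also among the 17, had 0 readthrough reads in G418 A. They were placed there with their tails unread, so a retention signal in any of them would have been missed. Outside the set, 17 tested transcripts ended in such a tail, and these had 0.189 (0.171 to 0.208) in G418 A, beside 0.201 from their stop signals. That outside group was taken by the tail alone, without regard to where the protein lies in the cell. Of its 401 readthrough reads, 106 lay on a transcript with an RRTS of 0.229 and 93 on one with 0.108. Its pooled value thus leans on single transcripts. Pooled in this way, no group chosen by the tail exceeded the value that its stop signals gave.

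The single retention signal genes spread widely in G418 A. PDIA4, with UGAA, had 0, 2 and 100 readthrough reads in Untreated A, Untreated B and G418 A, and an RRTS of 0.232 in G418 A (95% interval 0.188 to 0.283, exact binomial on readthrough and CDS reads, as for the single genes below). PDIA6, with UGAG, had 0, 3 and 89 reads and an RRTS of 0.221 (0.177 to 0.272). TXNDC5, with UAGG, had 0, 0 and 50 reads and an RRTS of 0.205 (0.151 to 0.271). For these foldases the 0 reads in Untreated A allowed an RRTS of up to 0.0162 for PDIA4, 0.0137 for PDIA6 and 0.018 for TXNDC5 (3 reads), far below the G418 value.

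Both retention signal genes with UAAA had a low RRTS. HSP90B1 had 3, 5 and 31 reads and an RRTS of 0.0463 (0.0315 to 0.0658), the lowest of the 9, although it had the most CDS reads of the set in that library. ERP44, also with UAAA, had 3, 0 and 18 reads and an RRTS of 0.0618 (0.0366 to 0.0978). CALR, with UAGA, had 5, 10 and 34 reads, so that its untreated RRTS of 0.0309 and 0.0426 was the highest among the 9 genes with more than 1 read. Its RRTS in G418 A was 0.119 (0.0821 to 0.166), the smallest fold over the untreated mean among those of the 9 with untreated reads. Pooled over the other transcripts, UAAA gave 0.11 and UAGA 0.205 in G418 A.

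EDEM3, UGGT1 and SDF2L1 had the highest RRTS of the 9 from few reads. EDEM3, with UGAC, had 0, 0 and 12 reads and an RRTS of 0.923 (0.473 to 1.63), where its stop signal gave 0.388 in the other transcripts. UGGT1, with UGAU, had 0, 0 and 9 reads and an RRTS of 0.444 (0.203 to 0.844). SDF2L1, with UGAG, had 1, 0 and 17 reads and an RRTS of 0.324 (0.187 to 0.525). The intervals of UGGT1 and SDF2L1 held the pooled value of their stop signal, 0.364 for UGAU and 0.228 for UGAG, and that of EDEM3 did not.

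PDIA3, CRELD2 and MANF end in tails related to the pattern but outside it, QEDL, REDL and RTDL. PDIA3, with UAAA, had 8, 8 and 72 reads and an RRTS of 0.145 (0.113 to 0.183) in G418 A. MANF, with UAGU, had 5, 8 and 26 reads over a region of 264 nt, and its RRTS was 0.0169, 0.017 and 0.0326 (0.0213 to 0.048 in G418 A). MANF thus combined the second largest change in CDS reads of the set with the smallest RRTS among the genes that had readthrough reads in G418 A. CRELD2, with UAAU, had the highest RRTS of the set, 1.12 (0.447 to 2.33), from 7 reads over a region of only 15 nt. In Untreated A 1 read on that region gave 0.404.
PDIA3, chr15:43771216-43771218, plus strand: caggaggatctcTAAAgcagtagccaa
CRELD2, chr22:49927305-49927307, plus strand: cgcgaagacctgTAATgtgccggactt
MANF, chr3:51389087-51389089, plus strand: cggaccgatttgTAGTctgctcaatct
The windows are given as for the 9 above.

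The pattern covers 1 kind of retention tail, and genes outside it may carry other signals. Among these, CANX, a membrane protein with UGAA at its end, had 4, 16 and 56 readthrough reads. Its RRTS was 0.0126, 0.0352 and 0.102 (0.0771 to 0.133 in G418 A), against 0.333 for UGAA in the other transcripts. DERL1, also with UGAA, had 1, 0 and 18 reads and an RRTS of 0.0934 (0.0551 to 0.148). PPIB, with UAGG, had 0, 2 and 35 reads and an RRTS of 0.206 (0.143 to 0.287), where UAGG gave 0.166. ERO1A, with UAAA, had 0, 0 and 17 reads and 0.245 (0.142 to 0.394). The ratio to the pooled value of the same signal thus ran from 0.281 for DERL1 to 2.22 for ERO1A among these genes.

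The ATF6 region had 0, 0 and 4 reads, an RRTS of 0.448 (0.122 to 1.15) with UAGC at its stop. EDEM1, with 0, 0 and 1 read, had 0.751 with an interval from 0.0189 to 4.27, which holds no usable information. HERPUD1 had 0, 0 and 5 reads and an RRTS of 0.386 (0.125 to 0.905). At this depth 0 reads in G418 A on XBP1 allowed an RRTS of up to 0.246, on DNAJC3 up to 0.181 and on DNAJB9 up to 0.376. The pooled 0.213 of all transcripts thus lay within the limit for XBP1 and DNAJB9. The limit for DNAJC3 held the 0.11 of its own signal, UAAA, in the other transcripts, which would give 1.83 reads. P4HB and HYOU1 also had 0 reads in all 3 libraries, with limits of 0.0373 and 0.0693 in G418 A, but the stop codons listed for them are not those of the full-length proteins in the annotation used here. Leaving out these with XBP1 gave a pooled RRTS of 0.128 for the set in G418 A.

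**Figure D5:**
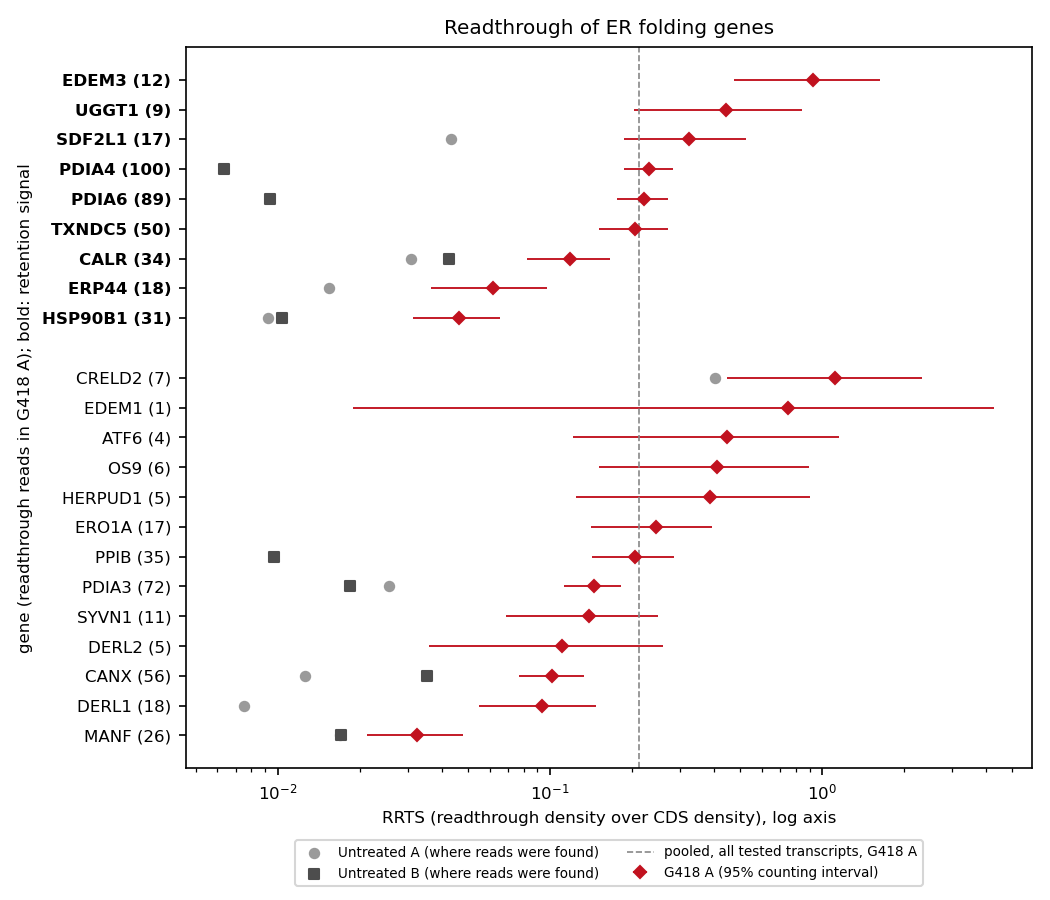
RRTS (log axis) of the 22 listed ER folding genes with readthrough reads in G418 A, genes with a retention signal above and in bold, with the read number in parentheses. Diamonds are G418 A with 95% counting intervals, grey and black symbols the untreated libraries where reads were found, and the dashed line the pooled 0.213 of all tested transcripts.

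In CDS reads, the 9 retention signal genes had a median log2 change of 0.44, with 4 of 9 called by edgeR, and the 17 other tested genes of the set had 0.47, with 7 called. The 17 transcripts outside the set that end in such a tail had a median of 0.19 and 0 calls by edgeR or DESeq2 (4 at an unadjusted edgeR p below 0.05). Summed over the 9 genes, CDS reads were 5052 and 4649 RPM of Untreated A and B and 7594 RPM of G418 A. RPFs in the 5′UTR of the set were few, 0.172%, 0.218% and 0.0991% of its CDS reads in the 3 libraries, where all tested transcripts had 2.09%, 2.20% and 1.91%.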

How the data were processed

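RPFs of HEK293T cells were measured in 3 libraries, which were grouped by the treatment in their labels. Per the study's methods, the authors collapsed reads sharing a molecular identifier, aligned them with STAR to hg38 with GENCODE v30, kept primary alignments, and assigned RPFs of 28 to 35 nt to 1 transcript per gene. The authors deposited RPM values of each region, RPKM densities (RPM per kilobase, from a CDS without 33 nt at its ends), the ratio RRTS, and whole-number counts. Every nonzero RPM value was a whole multiple of 1 read within 0.01, so reads were recovered by division. The authors' counts were an alternative, as was scaling by TMM or DESeq2 factors.

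CDS reads of transcripts with a mean of at least 128 reads were tested with edgeR 4.0.16 (quasi-likelihood, library size fixed to the reads behind the RPM scale, Benjamini-Hochberg over all 5684 transcripts) and with DESeq2 1.42.0, both tested on simulated data. Log2 changes in the text are ratios of RPM without pseudocount. Other values were computed in Python 3.11.15. Intervals are exact at 95% and the limit for 0 reads is 3 reads.

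Tails, stop windows and extensions came from GENCODE v44 transcripts, in place of RefSeq proteins as first designed. Of the listed transcripts, 92.7% had the same stop signal and extension there, all listed members but HYOU1, P4HB and XBP1 among them. Leaving out single genes from class values, or HYOU1, P4HB and XBP1 from the set, was chosen after seeing the data, whereas leaving out the gene with the most readthrough reads (PDIA4) from the pooled RRTS of the set was planned. Members and gene lists were chosen with earlier results of these data known. Values in every library are given for genes past 0.5 on the log2 scale, sensors, retention signal genes and the 5 highest RRTS, and at most 3 genes of each other list are named by size of change. One gene of the list of other ERAD genes is not reported here.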

Additional observations from a re-analysis of the deposited data

How the results depend on the processing

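The number of ER folding genes called higher in G418 A was 11 with the design as described, 6 with TMM factors, 6 with DESeq2 size factors, 5 with a minimum mean of 500 CDS reads (19 genes tested) and 7 with the DESeq2 Wald test. Over all transcripts the same settings called 173, 110, 106, 27 and 19 higher. Every gene called under these settings was among the 11. TMM lowered the median change of all transcripts from 0.07 to 0.00 and that of the set from 0.45 to 0.38, and no called gene changed sign under either scaling. The median change of the set was 0.59 without Untreated A and 0.47 without Untreated B. Between 12 and 14 genes then passed 0.5, and no test was made, since 1 library a group leaves no residual degrees of freedom. The remaining alternatives for these results stayed within 1.5 times the count or within the spread.

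The mean of the deposited RRTS with equal weights was 0.231 for the set and 0.286 for the retention signal genes, above the pooled values, and the fold of the set over its untreated mean was 16.8 in place of 10.1. Without PDIA4, which had the most readthrough reads, the pooled RRTS was 0.114 for the set and 0.131 for the retention signal genes, and the fold was 8.78. With PDIA3, CRELD2 and MANF counted as retention signal genes, a choice made after seeing the data, the pooled RRTS of those genes was 0.125. The fold ran from 9.40 to 10.9 without either untreated library. No paired analysis was possible because the groups share only the replicate letter A. Genes with under 10 readthrough reads have intervals too wide to order them.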
